A study of Mus musculus with 4 samples.

Results

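Zic1, Zic2, Zic4 and Zic5 were 4 of the 31053 genes in a count matrix of single nuclei from the mouse superior colliculus, and they were taken from it by gene symbol alone. The superior colliculus is the layered roof of the midbrain, where input from the eye and the other senses meets. It was dissected from C57BL/6J mice at embryonic day 19 (E19; the extraction protocol abbreviates this stage as E10, and the stage label of the sample is E19) and at postnatal days 4 (P4), 8 (P8) and 21 (P21), tissue from several animals was pooled at each stage, and each pool gave 1 library made with the 10x Genomics 3′ v3 chemistry. No genotype or treatment other than stage is given in the labels. Stage and library are therefore the same thing here, there is no replicate check on any difference between stages, and no p-value is given. The intervals below are exact 95% intervals that cover counting error only: Poisson intervals for CPM (the UMIs of a gene per 1000000 UMIs, both summed over the nuclei of a group), Clopper-Pearson intervals for shares, and the matching exact interval for a ratio. A UMI is a molecular barcode that marks 1 captured RNA molecule.

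Zic genes encode transcription factors named for the zinc fingers of the cerebellum. Their C2H2 zinc fingers are related to those of the GLI proteins, which act at the end of the hedgehog pathway. Zic genes are known from the dorsal neural tube, where they take part in neural tube closure and midline patterning, from cerebellar granule neurons and their progenitors, and from the meninges that cover the brain.

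The 4 genes lie in the genome as pairs that face away from each other, with a minus-strand and a plus-strand gene in each. In GRCm38 Zic1 (ENSMUSG00000032368) spans chr9:91358058-91365810 on the minus strand and Zic4 (ENSMUSG00000036972) spans chr9:91362413-91389348 on the plus strand. The annotated genes overlap by 3398 bases because 1 of 12 annotated Zic4 transcripts, Zic4-208, starts inside Zic1, and 60 exon bases of Zic1 are also exon bases of Zic4 on the other strand. The sources used here do not say whether the counting used strand, so how reads from the overlap were given to the genes is uncertain. On chromosome 14, Zic5 (ENSMUSG00000041703) spans chr14:122456795-122465677 on the minus strand and Zic2 (ENSMUSG00000061524) spans chr14:122475435-122479852 on the plus strand, with 9757 bases between them.

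Promoter windows are shown because the levels of the 4 genes are compared throughout, and because the neighbours of both pairs come back in the results. They come from RefSeq in GRCm38.p6, are printed up to the base before the first one in the window that is an exon base of a protein-coding transcript, run 5′ to 3′ on the strand of the gene, and carry capitals for matches to GGGCGG (the GC box), CCAAT or CACGTG (an E-box).
Zic1 chr9:91365811-91366018: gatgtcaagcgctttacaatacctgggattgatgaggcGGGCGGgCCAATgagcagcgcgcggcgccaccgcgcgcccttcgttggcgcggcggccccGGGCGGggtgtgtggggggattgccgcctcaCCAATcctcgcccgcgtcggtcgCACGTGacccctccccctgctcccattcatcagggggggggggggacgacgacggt
Zic4 chr9:91368722-91368811: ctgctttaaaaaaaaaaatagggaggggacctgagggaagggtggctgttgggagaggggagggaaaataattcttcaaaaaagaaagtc
Zic5 chr14:122465678-122465908: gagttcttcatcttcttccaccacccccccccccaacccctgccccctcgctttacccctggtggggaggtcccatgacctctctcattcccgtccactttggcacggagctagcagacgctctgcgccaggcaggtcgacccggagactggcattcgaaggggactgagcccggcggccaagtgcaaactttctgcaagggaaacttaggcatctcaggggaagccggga
Of the 4 genes, 3 had a window and Zic2 had none. The stretches of Zic1 and Zic5 end at the base before the annotated gene. That of Zic4 lies inside the annotated gene, where its last base is 6398 bases past the first base of Zic4-208, a protein-coding transcript, so it precedes a later start of Zic4. The 208 bases of Zic1 were 71.2% G or C and held 26 CG pairs, the 231 bases of Zic5 were 62.3% G or C with 11 CG pairs, and the 90 bases of Zic4 were 43.3% G or C with 0 CG pairs. The median of all 32851 windows in the table was 52.7%. In the printed Zic1 stretch the search found GGGCGG at 2 positions, CCAAT at 2 positions and CACGTG at 1 position. No searched word, TATAAA included, was found in the printed stretches of Zic4 and Zic5, which says only that those letters are not there. Both strands were searched and no matches overlapped. In the full windows, which run into the first exon, GGGCGG was present for Zic1 and Zic5, and of all full windows 35.7% hold GGGCGG, 37.4% hold CCAAT, 13.6% hold TATAAA and 7.15% hold CACGTG.

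Near-identical stretches could split reads between relatives, so the longest run that the transcripts share was also found. Zic1 and Zic4 share 42 bases of coding sequence, and the longest run shared by all 4 genes was 19 bases.

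The matrix holds 9724 nuclei, 2249 to 2585 in a library, with 19277512 to 31325079 UMIs in a library and median depths from 6828 UMIs per nucleus at E19 to 11745 at P21. The authors placed each nucleus in 1 of 9 classes and 1 of 35 subtypes, 25 of them neuronal (13 excitatory, named EN, and 12 inhibitory, named IN). Those deposited names are used throughout. There were 9 cell barcodes found in more than 1 library. Free RNA from broken cells can put UMIs into nuclei that do not express a gene, so each neuronal level is set beside a class that should lack the gene. Microglia (13 to 33 nuclei in a library) were too few for a usable level, with 0 to 6 Zic1 UMIs in a library, and the endothelial class had Zic UMIs of its own. The oligodendrocyte lineage (47 to 306 nuclei) was therefore used for this, a choice made after those values were seen.

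The vascular leptomeningeal cells (VLMC, the fibroblast-like cells of the meninges and vessel sheaths) and the class named epithelial had the highest Zic1 and Zic4 levels. In the VLMC Zic1 was at 473 CPM (386 to 573) at E19, 422 at P4, then 438 at P8 and 317 at P21. Zic4 was at 291, 447, 393 and 379 CPM in the same order. The P21 interval of Zic1 (282 to 356) lay below the intervals of the other 3 libraries, and the E19 interval of Zic4 (224 to 372) lay below that of P4.

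Zic2 and Zic5, the chromosome 14 pair, were also high there. Zic2 was at 150.04, 160.4, 137 and 189 CPM in the VLMC from E19 to P21, and Zic5 was at 77.3, 93.4, 97.6 and 70.8 CPM. The intervals of the 4 libraries overlapped for Zic5, and for Zic2 they overlapped between every neighbouring pair of stages. A UMI of at least 1 of the 4 genes was found in 98.7 to 100% of VLMC nuclei in a library and in 100% of epithelial nuclei in every library.

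Against all neurons pooled, all 4 genes were past 2-fold higher in the VLMC in all 4 libraries, on the log2 scale with 5 CPM added to both values. Of all 14039 genes compared with the same filter, 9.26% were higher in this way. The ratio of CPM was smallest for Zic1 at P4, 9.75 (8.35 to 11.3), and was largest for Zic2 at P21, 95.8 (69.7 to 134). Pooled neurons had 22.8, 43.3, 16.5 and 7.33 CPM of Zic1 from E19 to P21.

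Between P4 and P21 none of the 4 genes passed 2-fold in the VLMC. Of all genes tested in that comparison 12.6% were lower and 4.86% were higher. The log2 differences were -0.41 for Zic1, 0.23 for Zic2, -0.23 for Zic4 and -0.38 for Zic5, with a median of -0.30 beside -0.21 over all genes. The VLMC class was checked against its markers, whose sum was 4306 to 10912 CPM in a library, and 1 of 10 markers, the transporter gene Slc47a1, had 0 UMIs at E19 and P8. Foxc1, a transcription factor of the meninges, was present at 118, 106, 133 and 132 CPM.

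The epithelial class was close to the VLMC in its Zic levels. Its Zic1 level was 437 CPM at E19, 333 at P4, then 451 at P8 and 320.2 at P21, and its Zic4 level was 501, 554, 605 and 378 CPM. It held 13 and 17 nuclei in the E19 and P4 libraries, so comparisons used only P8 (32 nuclei) and P21 (40 nuclei). All 4 genes were past 2-fold higher than in neurons in both libraries, where 12.8% of genes were.

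Set against the VLMC, none of the 4 passed 2-fold in both libraries in either direction, where 4.21% of genes were higher and 5.65% lower. The Zic4 ratio of epithelial over VLMC was 1.54 (1.22 to 1.94) at P8 and 0.998 (0.793 to 1.25) at P21.

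The label of that class did not match the markers listed for it. Ttr, Foxj1, Folr1 and Kl, markers of choroid plexus and ependymal epithelium, summed to 0, 111, 14.4 and 7.28 CPM from E19 to P21, while the list of VLMC markers, Slc47a1 included, summed to 2062 to 2620 CPM. Cdh1, the adhesion gene of epithelia, was at 679, 177, 403 and 422 CPM in it and at 9.09 to 54.5 CPM in the VLMC. Slc47a1 was at 469, 606, 1507 and 1222 CPM in it and at 3.27 CPM or less in the VLMC. The class is therefore called here only by its deposited name. Cdh1 was picked after its values were seen.

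In the endothelial class Zic1 was at 198, 109, 103 and 40.7 CPM from E19 to P21, on 12 to 22 nuclei in a library. Zic2 was at 27.0, 74.2, 113 and 81.3 CPM. These nuclei also carried genes of mural cells, the pericytes and smooth muscle cells of the vessel wall: Abcc9 at 402 to 964 CPM and Rgs5 at 746 to 1416 CPM, beside the endothelial tight junction gene Cldn5 at 637 to 2732 CPM. The part of each cell type in the Zic counts was not tested.

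**Figure D1:**
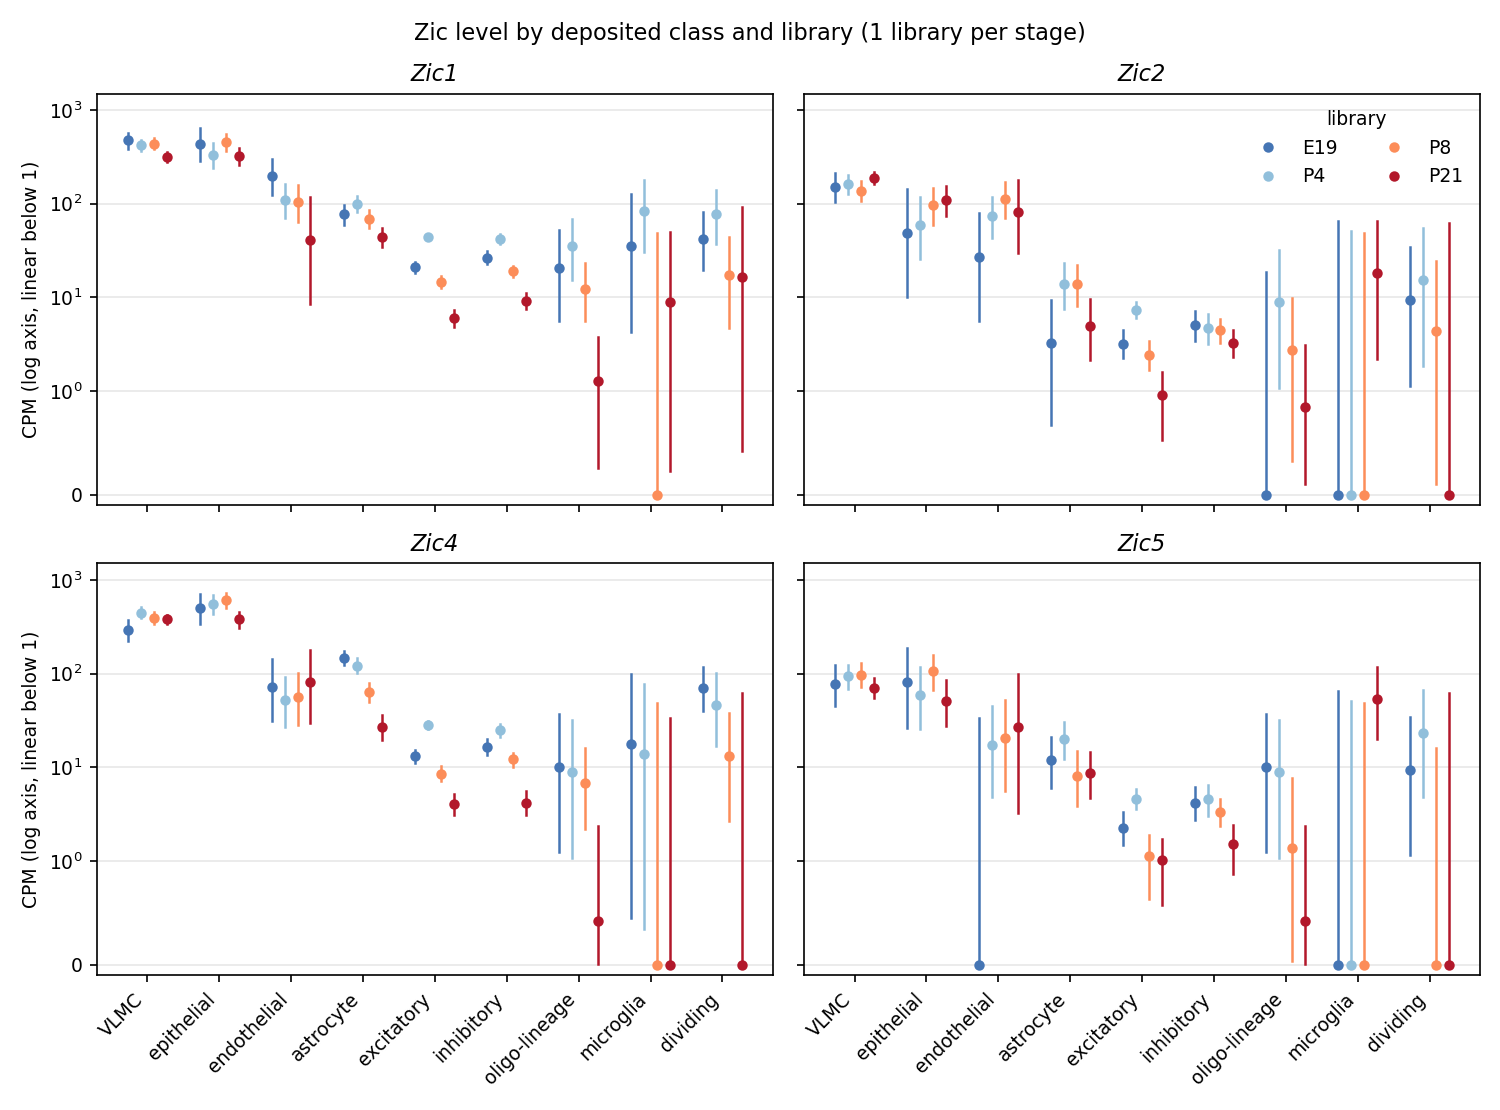
Level of Zic1, Zic2, Zic4 and Zic5 (CPM, log axis that is linear below 1) in the 9 deposited classes, with 1 point per library and exact 95% Poisson intervals. VLMC and epithelial points lie highest in the panels of Zic1 and Zic4, the endothelial point of Zic2 at P8 (113 CPM) lies above the epithelial one (95.97), and the neuron points of Zic1 and Zic4 are highest at P4 (43.7 CPM of Zic1 in excitatory neurons) and lowest at P21 (5.96 CPM).

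Astrocytes came next in the order of the levels. Zic1 was at 76.7 CPM at E19, 100.0 at P4, then 69.3 at P8 and 43.7 at P21, and Zic4 was at 148, 122, 62.9 and 27.1 CPM. Both were past 2-fold higher than in neurons in all 4 libraries, where 6.79% of genes were. Zic5 was past 2-fold in every library but P8, and Zic2 only at P8. Zic4 was the only one of the 4 past 2-fold lower at P21 than at E19, with a log2 difference of -2.25 and a ratio of 0.183 (0.127 to 0.259), where 16.7% of genes were lower. From P4 to P21 both Zic1 and Zic4 were past 2-fold lower (15.2% of genes were) and from P8 to P21 Zic4 was (6.9%). Zic2 was past 2-fold higher at P4 than at E19, on 3 and 14 UMIs, where 4.49% of genes were.

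The subtypes of astrocytes differed in Zic4. The fibrous subtype had 478 CPM of Zic4 at E19, 452 at P4, then 213 at P8 and 57.3 at P21, and the protoplasmic subtype had 62.5, 26.8, 30.4 and 22.2 CPM. The ratio was 7.64 (5.30 to 11.1), 16.9 (10.5 to 28.4), 7.02 (4.37 to 11.4) and 2.59 (1.24 to 5.09). Zic1 had smaller ratios, 2.83, 2.58, 2.36 and 2.25, and these 2 genes were past 2-fold in all 4 libraries, where 1.49% of genes were. All 4 libraries had the fibrous level above the protoplasmic one for Zic1, Zic2, Zic4 and Zic5, by direction alone. For Zic2 at E19 this was 1 against 2 UMIs, with a ratio interval of 0.0327 to 37.1. The Zic5 intervals at P4 (0.632 to 5.05) and P21 (0.903 to 11.4) also held 1. The share of all genes with that direction is not given here.

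Those fibrous counts came from few nuclei. At E19 the 91 Zic4 UMIs were in 17 of 41 nuclei, and at P4 the 102 UMIs were in 29 of 48 nuclei. At P8 the 47 UMIs were in 12 of 45 nuclei, and 1 nucleus held 24 of them. At P4 the fibrous subtype also carried the epithelial markers at 2495 CPM, against 20.99 to 30.9 CPM in the other libraries, and its astrocyte markers were lowest there, at 665 CPM against 1286 to 2946. The part of those RNAs in the Zic4 level was not tested. Htr2c, a serotonin receptor gene with high levels in choroid plexus, was at 1129 CPM in the 22 P4 nuclei with at least 2 Zic4 UMIs and at 10103 CPM in the 19 with none. It was found in 5 nuclei of each set, and 1 nucleus held 117 of the 121 UMIs of the first.

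Splitting the E19 fibrous nuclei the same way put 14 nuclei with at least 2 Zic4 UMIs beside 24 with none. The split used Zic4, so it is a description of which other RNAs those nuclei held. Zic1 was at 353 CPM in the first set and 37.4 in the second. Wnt9a, a signalling ligand, was at 325 and 9.35 CPM, and Unc5c, a netrin receptor gene, was at 2018 and 159 CPM. Going the other way, Slc6a11, a GABA transporter gene of astrocytes, was at 0 and 365 CPM, and Ntn1, which encodes netrin, was at 28.2 and 748 CPM. Wnt9a, Unc5c, Slc6a11 and Ntn1 were taken from the largest differences between the sets, so they show no more than which genes those were.

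In neurons the levels were lower by far, and most of them could not be set apart from the oligodendrocyte lineage. Excitatory neurons had 20.8 CPM (18.3 to 23.6) of Zic1 at E19, 43.7 (40.4 to 47.2) at P4, then 14.6 (12.6 to 16.8) at P8 and 5.96 (4.77 to 7.35) at P21. Inhibitory neurons had 26.5, 42.4, 18.9 and 9.11 CPM. In the oligodendrocyte lineage Zic1 was at 20.4 (5.55 to 52.1), 35.2 (15.2 to 69.4), 12.3 (5.61 to 23.3) and 1.28 (0.263 to 3.73) CPM. It was highest at P4 and lowest at P21 in all 3 classes, and the neuron intervals lay within that of the oligodendrocyte lineage in the first 3 libraries.

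Of excitatory nuclei 13.5, 31.4, 12.3 and 8.65% had a Zic1 UMI from E19 to P21, at median depths of 8051.5, 11738, 14158 and 19601 UMIs. In the oligodendrocyte lineage these shares were 6.38, 14.8, 6.29 and 0.980%, at median depths of 4197, 4055.5, 4736 and 7253. After each nucleus was thinned to 2300 UMIs they were 5.01, 9.70, 2.54 and 1.76% in excitatory neurons and 2.13, 5.56 and 2.10% in the first 3 libraries of the oligodendrocyte lineage, where 0 of 306 nuclei at P21 allowed up to 1.198%. With both classes at the same depth, the intervals of the shares overlapped at E19, P4, P8 and P21.

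None of the 4 genes was past 2-fold higher in neurons than in the oligodendrocyte lineage in all 4 libraries, where 4.21% of genes were. At P21 the oligodendrocyte lineage had 3 Zic1 UMIs in 306 nuclei, and there both neuron classes lay above its interval for Zic1 and for Zic4 (0.425 CPM, 0.0108 to 2.37, against 4.04 in excitatory and 4.16 in inhibitory neurons). The P21 class was made up of other subtypes than the earlier ones. Precursors (OPC) were 46 of 47, 42 of 54, 109 of 143 and 64 of 306 nuclei from E19 to P21, and 187 of those 306 were myelinating oligodendrocytes. The 64 OPC at P21 had 0 Zic1 UMIs, which allows up to 12.3 CPM, so against OPC alone the neuronal Zic1 levels at P21 could not be set apart. A neuronal level at or below that of the oligodendrocyte lineage in the same library is therefore not read here as set apart from it. The oligodendrocyte levels rest on few UMIs and on shallower nuclei, so they cannot show that such a level is free RNA, and this was not tested.

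For Zic1 and Zic4 the neuronal level was higher at P4 than at E19 and lower at P21. From E19 to P4 the Zic1 ratio was 2.10 (1.81 to 2.45) in excitatory and 1.60 (1.31 to 1.96) in inhibitory neurons, and that of Zic4 was 2.12 (1.76 to 2.57) and 1.51 (1.17 to 1.97). Zic2 had 2.30 (1.57 to 3.44) and 0.933 (0.544 to 1.60), and Zic5 had 2.05 (1.29 to 3.36) and 1.08 (0.612 to 1.93), so neither was set apart from no change in inhibitory neurons. With 5 CPM added, none of the 4 was past 2-fold in either class, and 0.414% and 0.427% of all genes were higher by that rule. From E19 to P21 Zic1 and Zic4 were past 2-fold lower in both classes, where 9.35% of genes in excitatory and 10% in inhibitory neurons were.

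From E19 to P21 the log2 difference of Zic1 was -1.24 in excitatory and -1.16 in inhibitory neurons, and that of Zic4 was -1.01 and -1.23. The Zic1 ratios were 0.286 (0.221 to 0.367) and 0.344 (0.266 to 0.443). Zic2 and Zic5 were under the filter of 5 CPM in excitatory neurons at both stages, and their ratios were 0.299 (0.149 to 0.566) and 0.455 (0.224 to 0.893). The median log2 difference over the 4 genes, those under the filter included, was -0.74 in excitatory and -0.83 in inhibitory neurons. Of the 4, 2 passed the filter in excitatory and 3 in inhibitory neurons. The medians over all genes, -0.09 and -0.07, used only genes that passed it.

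From P4 to P21 Zic1, Zic2 and Zic4 were past 2-fold lower in excitatory neurons, where 6.27% of genes were, and Zic1 and Zic4 in inhibitory neurons, where 6.19% were. From P8 to P21 none of the 4 was past 2-fold lower, where 2.76% of genes in excitatory and 2.87% in inhibitory neurons were. From P4 to P8 in excitatory neurons Zic1 had a ratio of 0.333 (0.282 to 0.392) and Zic4 0.306 (0.246 to 0.378), both past 2-fold lower, where 0.64% of genes were. These calls rested on EN7 and EN10, as EN7 went from 191 nuclei to 1. Without EN7 the log2 difference was -1.07 for Zic1 and -0.81 for Zic4, in place of -1.32 and -1.28, and without both subtypes it was -0.83 and -0.66, so that neither was past 2-fold. From P4 to P21 Zic1 and Zic4 were still past 2-fold lower without both (-1.64 and -1.26), and Zic2 was not without EN7 (-0.87) or without EN10 (-0.99). In inhibitory neurons none of the 4 was past 2-fold lower from P4 to P8, where 0.344% of genes were, and the log2 difference of Zic1 was -0.99. In the oligodendrocyte lineage all 4 genes were past 2-fold lower from P4 to P21 on 1 to 8 UMIs a gene and library, where 25.4% of genes were, with the change of subtypes given above. How much of the neuronal difference came from free RNA was not tested.

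The calls from E19 to P21 depended on the CPM added. With 20 CPM added none of the 4 genes was past 2-fold lower in either class. In excitatory neurons Zic4 was also short of 2-fold with median-of-ratios scaling (-0.94), with subtypes weighted alike (-0.48) and without EN7 (-0.96), all on the log2 scale.

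Across subtypes, Zic1 was lower at P21 than at E19 in 21 of 23 with at least 20 nuclei in both libraries, and higher in 2. Zic4 was lower in 16 and higher in 4, Zic2 lower in 10 and higher in 4, and Zic5 lower in 10 and higher in 3. The interval of the ratio lay below 1 in 16, 6, 2 and 1 of them, in that order. The subtypes share the same libraries, so they are not separate support, and no share of all genes is given for these counts. Zic1 was lower at P21 than at P4 in 23 of 23 neuron subtypes with at least 20 nuclei in both libraries, and in 15 of them the interval of the ratio lay below 1. Zic4 was lower in 22 of 23, with 10 such intervals. From E19 to P4 Zic1 was higher in 17 of 25 subtypes, with 4 intervals above 1, and Zic4 in 16 of 25, with 4.

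Inhibitory and excitatory neurons did not differ in the same way in every library. The ratio of inhibitory over excitatory for Zic1 was 1.27 (1.04 to 1.56) at E19, 0.971 (0.839 to 1.12) at P4, then 1.30 (1.06 to 1.58) at P8 and 1.53 (1.14 to 2.06) at P21. Zic2 had 1.57, 0.636, 1.82 and 3.42, Zic4 had 1.25, 0.889, 1.41 and 1.03, and Zic5 had 1.86, 0.980, 2.94 and 1.46. The intervals lay above 1 for Zic1 at E19, P8 and P21, for Zic2 at P8 and P21, for Zic4 at P8 and for Zic5 at E19 and P8. The interval lay below 1 for Zic2 at P4 (0.410 to 0.960), and all others held 1, as that of Zic4 at P21 did (0.686 to 1.54). Some of these levels were at or below that of the oligodendrocyte lineage, on few oligodendrocyte UMIs. Zic5 at E19 was at 4.19 CPM in inhibitory and 2.25 in excitatory neurons, beside 10.2 (1.23 to 36.8) in the oligodendrocyte lineage. At P4 both Zic2 (4.70 and 7.38) and Zic5 (4.54 and 4.63) were below its 8.80 CPM (1.07 to 31.8). Each of these oligodendrocyte levels came from 2 UMIs. The neuronal levels lay within its intervals, so they could not be set apart from it in either direction. By direction alone and without EN7, 3 of the 4 were higher in inhibitory neurons in every library. The share of all genes by that rule is not given here, so the count is not read as a result about the 4 genes. With EN7 kept, none passed 2-fold in all 4 libraries, where 0.377% of genes were higher and 0.352% lower.

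The subtypes EN7 and EN10 held much of the Zic RNA of excitatory neurons at P4. Without both, the P4 level of Zic1 was 30.0 CPM in place of 43.7, and that of Zic4 was 16.5 in place of 27.996. EN7 had 191 nuclei at P4, 33 at E19 and 1 each at P8 and P21. Leaving these subtypes out was chosen after the values were seen.

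By subtype, the interval of the Zic1 ratio to the oligodendrocyte lineage of the same library lay above 1 in 3 of 25 subtypes at E19 (IN11, EN7 and IN4), 3 of 25 at P4 (EN10, IN11 and EN7), 4 of 23 at P8 (IN1, IN11, EN2 and EN1) and 6 of 23 at P21 (IN1, IN11, EN2, EN3, EN1 and IN2). For Zic4 these were IN11 at E19, EN10, EN7, IN11 and IN1 at P4, IN1, IN11 and EN1 at P8, and IN1, EN2, EN1 and EN3 at P21. For Zic2 they were IN1 and IN3 at P8 and P21, and for Zic5 IN1 at P8 and IN3 at P21. IN11 was the subtype that met this for Zic1 in all 4 libraries.

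IN11 was a small inhibitory subtype, with 24 to 40 nuclei in a library. Its Zic1 level was 88.7 CPM (47.2 to 152) at E19, 94.1 (60.9 to 139) at P4, then 53.1 (34.4 to 78.5) at P8 and 19.8 (9.06 to 37.6) at P21. Its Zic4 level was 88.7, 64.0, 57.4 and 2.20 CPM, the last from 1 UMI. The P21 intervals of both genes lay below those of E19 and P4. The VLMC markers summed to 20.5, 52.7, 31.9 and 11.0 CPM in it, with 4 to 8 of the 10 genes at 0 in a library.

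IN1 had the highest neuronal Zic1 and Zic4 levels at P8 and P21. Its Zic1 level was 26.4 CPM (20.3 to 33.9) at E19, 62.2 (52.7 to 73.0) at P4, then 121 (97.3 to 148) at P8 and 42.0 (32.3 to 53.8) at P21. Zic4 followed the same order, at 18.8, 41.5, 86.9 and 24.7 CPM. From P4 to P8 the ratio was 1.94 (1.48 to 2.53) for Zic1 and 2.09 (1.51 to 2.88) for Zic4, opposite to the direction of both classes as a whole.

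At P8 the Zic1 interval of IN1 lay apart from that of the next subtype, IN11. Over the step from P4 to P8, Zic1 was higher in 3 of 23 subtypes and lower in 20, and 1 interval lay above 1, that of IN1. From E19 to P21 Zic1 in IN1 had a ratio of 1.59 (1.10 to 2.30), against lower levels in 21 of 23 subtypes. Zic2 in IN1 was at 8.10, 6.22, 18.2 and 12.01 CPM. IN1 held 266, 205, 52 and 70 nuclei, and whether the same kinds of cell fill it at each stage was not tested.

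The nuclei of IN1 were also split by their Zic1 UMIs, to describe which other RNAs they held. At P4, 32 nuclei had at least 2 Zic1 UMIs and 130 had none, at median depths of 11393.5 and 11279. The split used Zic1, so the values describe it. Zic4 was at 128 CPM in the first set and 16.9 in the second, and Cdh20, a cadherin gene, was at 261 and 46.9 CPM. Lgr5, a receptor gene for R-spondins, was at 141 and 27.4 CPM, and Tfap2b, a transcription factor gene, was at 279 and 88.6 CPM. Meis2, a homeobox gene, was at 29.3 and 250 CPM. Cdh20, Lgr5, Tfap2b and Meis2 were taken from the largest differences between the sets, so they show no more than which genes those were. In the first set 1 nucleus held 33 of the 98 Cdh20 UMIs, and 1 held 20 of the 53 Lgr5 UMIs. In the second set 1 nucleus held 76 of the 383 Meis2 UMIs.

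At P8 the set with at least 2 Zic1 UMIs held 23 nuclei and the set with none held 22. Cdh20 was again higher in the first, at 132 against 26.6 CPM, and Zic4 was at 135 against 30.0 CPM. Lef1, a transcription factor gene of the Wnt pathway, was at 29.1 and 153 CPM. Cdh20 and Lef1 were among the largest differences of this split as well, and 1 nucleus of the second set held 19 of its 46 Lef1 UMIs.

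**Figure D2:**
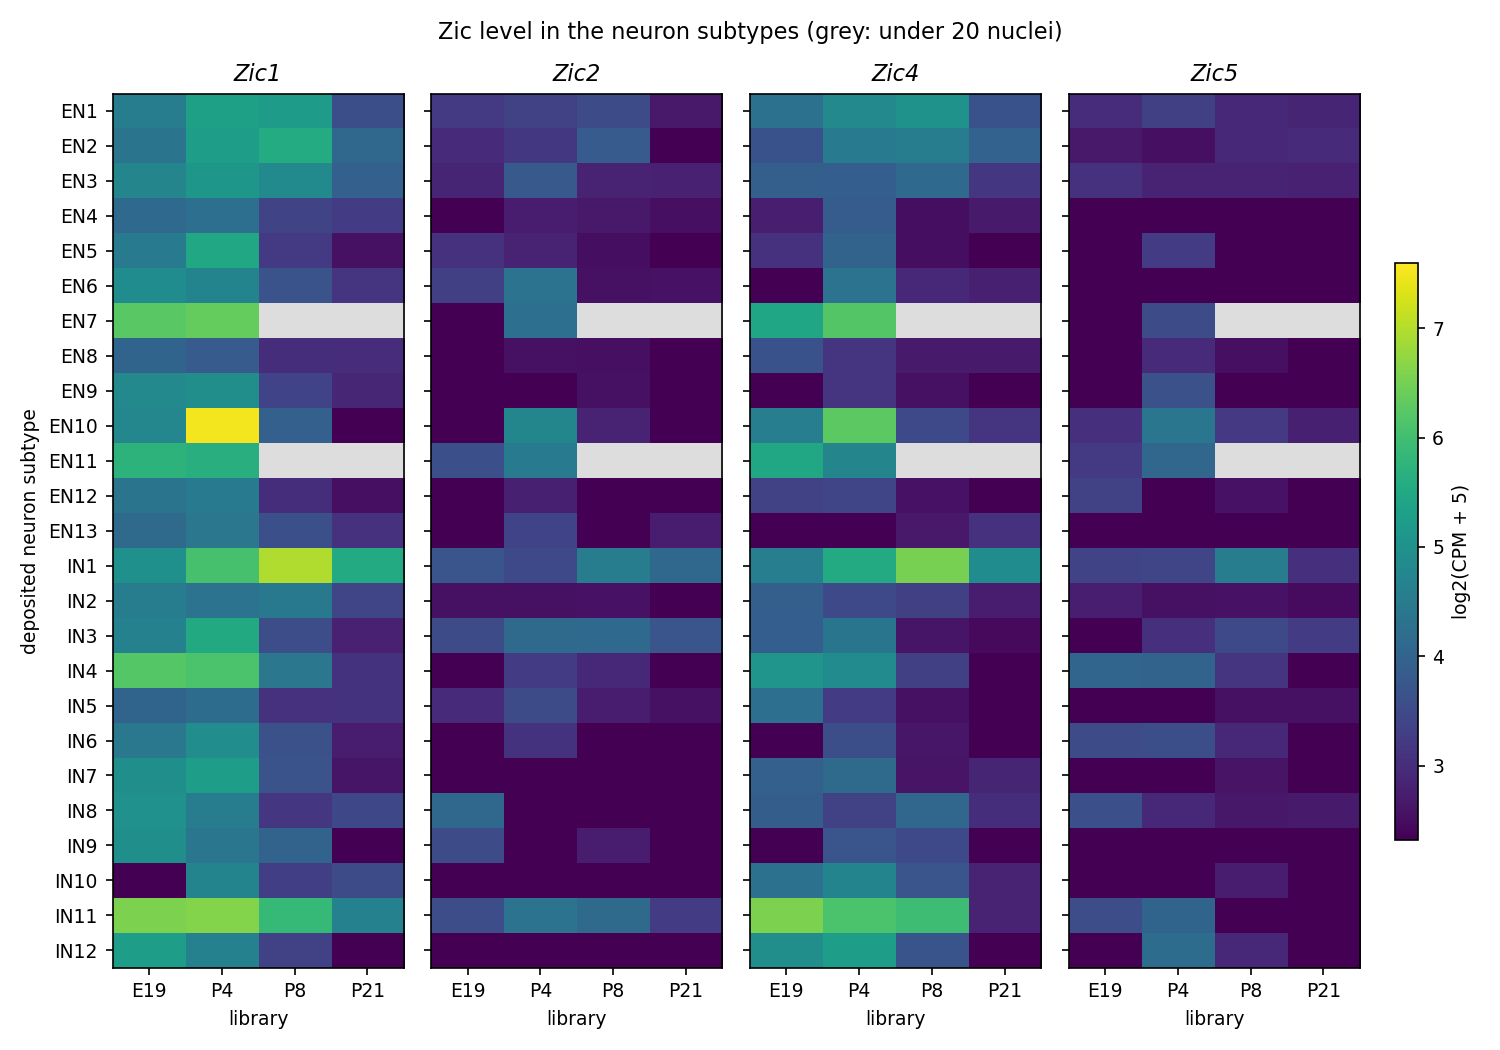
Level of the 4 genes, as log2(CPM + 5), in the 25 deposited neuron subtypes (rows) and 4 libraries (columns). Grey cells had under 20 nuclei, EN10 is the brightest cell of Zic1 at P4 (177 CPM), and IN1 the brightest at P8 (121 CPM) and P21 (42.0 CPM).

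EN10 stood out in the P4 library alone. Its Zic1 level was 22.1 CPM (8.90 to 45.6) at E19, 177 (142 to 218) at P4, then 10.4 (3.39 to 24.4) at P8 and listed at 0 with an upper bound of 6.84 at P21. The P4 interval lay apart from those of EN10 in the other 3 libraries and from that of IN11, the next subtype at P4. The 89 UMIs were in 30 of 60 nuclei.

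Within those 60 nuclei, 19 had at least 2 Zic1 UMIs, 11 had 1 and 30 had none. The first set was the shallower, with a median depth of 6674 UMIs against 9005.5. Zic4 was at 198 against 10.9 CPM, Zic2 at 65.9 against 3.65 and Zic5 at 43.9 against 3.65, and the 3 genes were found in 15, 9 and 4 of the 19 nuclei. Gm29478, a long non-coding RNA next to Zic4, had 61 UMIs in 13 of the 19 nuclei (447 CPM) and 0 UMIs in the 30.

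The sets differed in many other genes. Nwd2 was at 5997 and 299 CPM, Kcnma1, a calcium-activated potassium channel gene, at 15692 and 1345, and Cadps2, a gene of dense-core vesicle release, at 2006 and 80.2. Chrna3, a nicotinic receptor subunit gene, was at 249 and 10.9 CPM, and Chat, the gene of the enzyme that makes acetylcholine, had 20 UMIs in 10 of the 19 nuclei (146 CPM) and 0 in the 30. In the other direction Ebf2, a transcription factor gene, was at 0 and 922 CPM, the calcium channel gene Cacna1a at 0 and 816, and the splicing factor gene Rbfox1 at 278 and 8599. Slc17a6, which encodes a glutamate transporter of excitatory neurons, was at 198 and 237 CPM.

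The habenula, a nearby part of the brain, is known for neurons with Pou4f1, Tcf7l2, Chrna3 and Chat, and markers of thalamus and habenula were looked at for that reason. Pou4f1 was at 73.2 CPM in the 19 nuclei and 7.29 in the 30, and Tcf7l2 was at 871 and 168 CPM. Of the 8 genes listed for thalamus and habenula, only Pou4f1 and Tcf7l2 are given for the sets. No sum of the list is given for the 19 and the 30 nuclei, so these values do not name the cells. Over all EN10 nuclei the 8 listed genes summed to 2759, 2185, 2901 and 3141 CPM from E19 to P21, lowest at P4, and Gbx2 had 0 UMIs in all 4 libraries. The origin of the 19 nuclei was not tested. Cadps2 and the other genes of the split were taken as the largest differences, and Chat, Chrna3, Pou4f1, Tcf7l2 and Slc17a6 were added after values were seen.

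**Figure D3:**
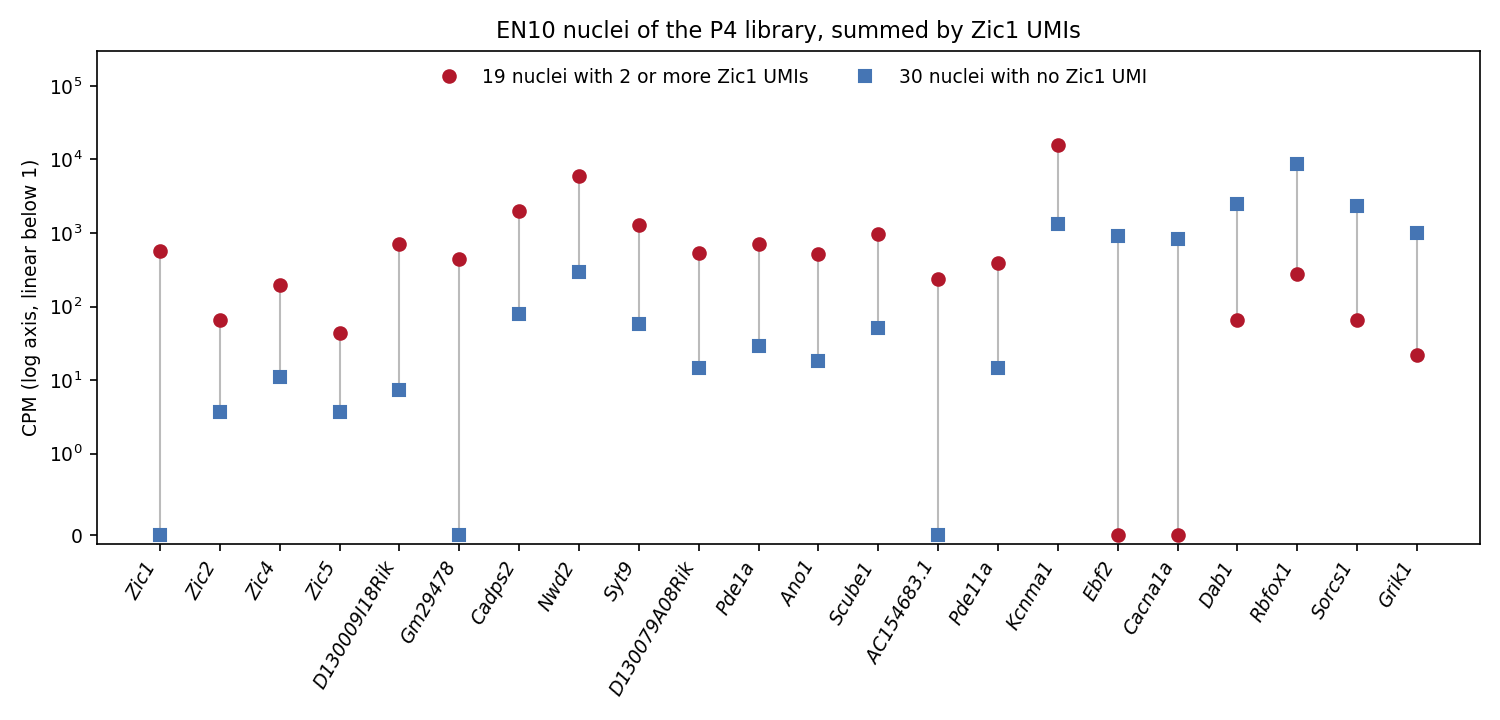
Level (CPM, log axis that is linear below 1) of the 4 genes and of the genes most different between 19 EN10 nuclei of the P4 library with at least 2 Zic1 UMIs (circles) and 30 with none (squares). The split used Zic1, Zic4 stands at 198 against 10.9 CPM, and Ebf2 and Cacna1a are at 0 in the 19 nuclei.

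In EN7 the Zic1 level was 70.7 CPM (44.3 to 107) at E19 and 77.1 (67.1 to 88.1) at P4, and the Zic4 level was 38.6 and 68.1 CPM. At P4, 56 of 191 nuclei had at least 2 Zic1 UMIs, 60 had 1 and 75 had none. Zic4 was at 118 and 45.2 CPM in the first and the last set, Zic2 was at 13.96 and 13.5 CPM, and Zic5 at 6.98 and 3.85.

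The Tcf7l2 level was near equal in the sets of EN7, at 1479 and 1422 CPM. Its thalamus and habenula list summed to 6353 CPM at E19 and 4626 at P4, above the sums of EN10. Foxp2, a transcription factor gene, was at 512 and 1257 CPM in the sets, and Etl4 at 20.9 and 331. Both were taken from the largest differences, so they show no more than which genes those were. The myelin gene Mbp was the gene most higher in the first set, at 303 and 39.4 CPM, but 1 nucleus held 214 of its 260 UMIs there. Among other oligodendrocyte markers, Mobp had 85 UMIs in the first set, all in 1 nucleus, and 0 in the second, and Mog had 10 and 6. Their part in the Zic1 level was not tested.

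Markers of cerebellar granule neurons, a known site of Zic1 and Zic2 in the brain next to the colliculus, were low. The 6 listed genes summed to 23.0, 13.96, 17.4 and 8.56 CPM in excitatory neurons, Neurod1 was at 0 in all 4 libraries and Gabra6 at 0 at P4, P8 and P21. They summed to 12.9 CPM at E19 and 2.52 at P4 in EN7 and to 14.8 to 79.0 CPM in EN10. VLMC markers summed to 27.3 to 47.8 CPM in excitatory neurons and 43.2 to 59.2 in inhibitory neurons.

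The make-up of the family, that is the share of each gene in the UMIs of all 4, differed between groups of nuclei. Zic UMIs are not scaled by gene length, and the annotated genes run from 4418 bases (Zic2) to 26936 (Zic4), so shares are compared between groups for 1 gene and not between genes. In neurons other than IN3 the shares were 52.8% Zic1, 8.31% Zic2, 32.9% Zic4 and 5.97% Zic5 of 3551 UMIs. The Zic1 share was 51.9, 53.1, 53.0 and 53.3% from E19 to P21, so it moved little while the level of Zic1 did not.

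In the oligodendrocyte lineage Zic1 made 52.2% (36.9 to 67.1) of 46 UMIs, an interval that holds the neuronal share. In the VLMC Zic1 made 37.7% (35.6 to 39.7) of 2161 UMIs and Zic2 16.2% (14.7 to 17.9). The Zic2 share in the other neurons, 8.31% (7.42 to 9.26), lay below this. Zic4 made 48.0% (44.2 to 51.8) of 700 UMIs in the epithelial class and 47.3% (43.8 to 50.8) of 808 in astrocytes, both above its share in the VLMC, 38.0% (35.9 to 40.1). Within astrocytes the Zic4 share was 60.5% (55.7 to 65.2) in the fibrous subtype and 33.1% (28.4 to 37.99) in the protoplasmic one, and in the fibrous subtype it was 71.1, 64.2, 52.8 and 31.0% from E19 to P21. The share of the class above the VLMC was thus that of the fibrous subtype. In the endothelial class Zic2 made 29.1% (22.3 to 36.7) of 165 UMIs.

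The inhibitory subtype IN3, picked after its values were seen, differed in make-up from the other neurons pooled. Over all libraries its 111 UMIs were 31.5% Zic1, 39.6% Zic2 (30.5 to 49.4), 9.91% Zic4 (5.05 to 17.0) and 18.9% Zic5 (12.1 to 27.5). The Zic2 share in IN3 was 18.2% and 17.4% at E19 and P4, and 46.8% and 53.3% at P8 and P21. The P8 and P21 intervals (32.1 to 61.9 and 34.3 to 71.7) lay above the Zic2 share of the other neurons, and those of E19 and P4, on 11 and 23 UMIs, did not.

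In CPM, Zic2 in IN3 was at 6.62, 12.6, 12.5 and 8.03 from E19 to P21, while Zic1 was at 19.9, 41.0, 6.79 and 2.01. The Zic2 intervals of all 4 libraries overlapped, while the Zic1 interval at P4 (21.8 to 70.1) lay above those at P8 (3.51 to 11.9) and P21 (0.547 to 5.14). At P8, 16 of 215 IN3 nuclei had a Zic2 UMI, and at P21, 11 of 126.

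**Figure D4:**
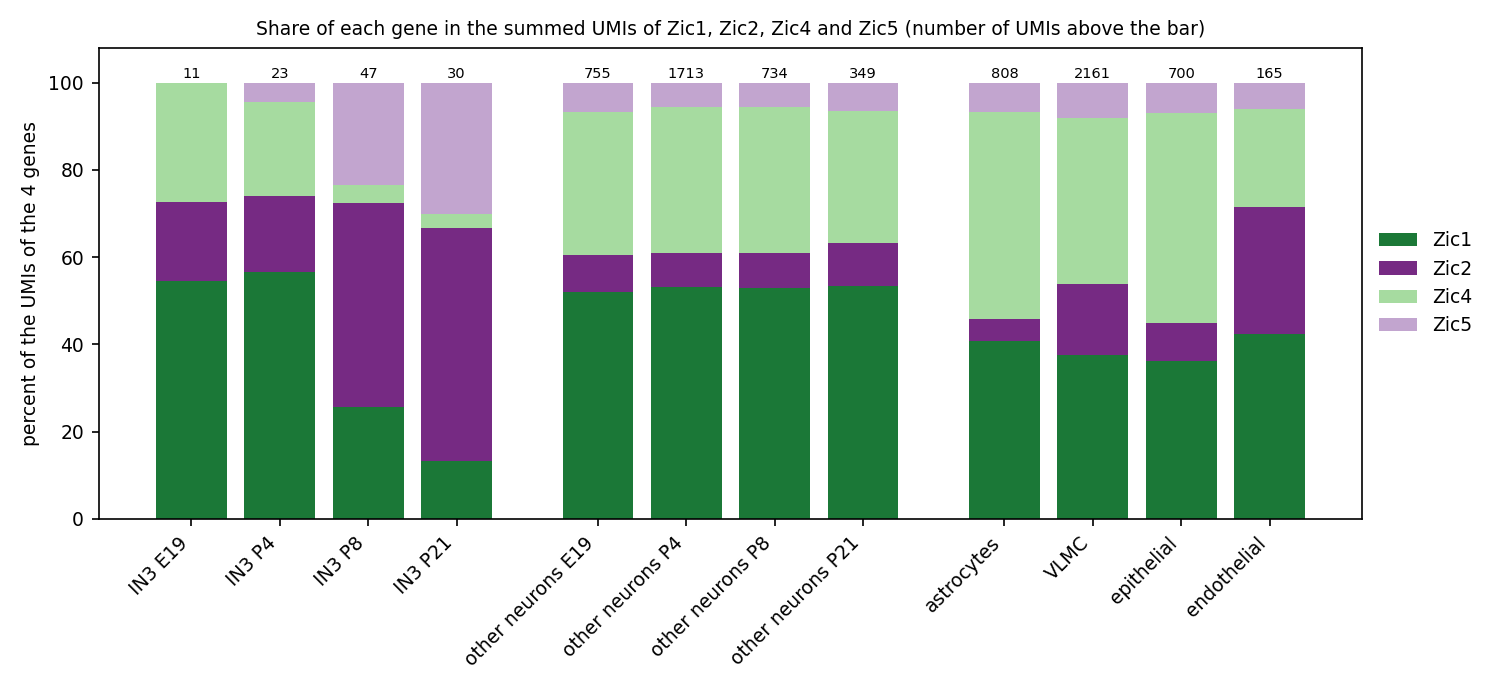
Percent of the UMIs of the 4 genes that belong to each gene, for the IN3 subtype and the other neurons by library and for 4 other classes over all libraries, with the number of UMIs above each bar. The bars of the other neurons are nearly alike (51.9 to 53.3% Zic1), and IN3 at P8 and P21 holds 46.8% and 53.3% Zic2.

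In neurons the 4 genes were found in the same nuclei more often than independent genes would be within a subtype and library. Over the 6 pairs and all nuclei, the observed number of nuclei with both genes was 1.27 to 1.47 times the number expected. In neurons it was 1.84 (1.66 to 2.04) for Zic1 with Zic4, 367 nuclei where 199.6 were expected, and 3.36 (2.48 to 4.44) for Zic2 with Zic5, 49 nuclei where 14.6 were expected. In other nuclei the 6 ratios were 1.06 to 1.17, and 5 of the 6 intervals held 1. These cannot be set against the neuronal ratios. In the VLMC 84.2 to 97.2% of nuclei in a library had a Zic1 UMI, and the ratio has little room above 1 where most nuclei hold a gene.

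Unequal depth within a group raises such a ratio by itself, so nuclei were also thinned to 2300 UMIs. The neuronal ratios were then 2.60 (1.996 to 3.34) for Zic1 with Zic4 and 4.82 (1.56 to 11.2) for Zic2 with Zic5, the latter on 5 nuclei. Pairs from different chromosomes were found together too: Zic1 with Zic2 had 2.82 (1.75 to 4.31) and Zic4 with Zic5 4.58 (2.44 to 7.84). Over all nuclei the thinned ratios were 1.07 to 1.45, and the intervals of 3 of the 6 pairs held 1: Zic2 with Zic4, Zic2 with Zic5 and Zic4 with Zic5.

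How alike the genes were was measured over 124 profiles, each a subtype in a library with at least 20 nuclei, as Pearson's r of log2(CPM + 5). The profiles share libraries, depth and free RNA, so r is a description. Zic1 and Zic4 had an r of 0.90 and Zic2 and Zic5 one of 0.82, and the 4 pairs across chromosomes had 0.76 to 0.79. Over the 96 neuron profiles these were 0.80 and 0.50, with 0.55 to 0.63 across chromosomes.

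Among 14149 other genes, the closest to Zic1 were Gm29478 (0.81), Nr2f2 (0.77), a nuclear receptor gene of vessels and mesenchyme, and Fbln1 (0.73), a matrix gene. For Zic2 they included Gm29478 (0.81) and Ddr2 (0.80), a collagen receptor gene. For Zic5 they were Itih5 (0.85), Ddr2 (0.81) and Gm29478 (0.80). For Zic4 they were Gm29478 (0.89), AC154683.1 (0.78) and Gm5089 (0.75).

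These last 3 are neighbours of the Zic genes. Gm29478 (ENSMUSG00000100341) is a long intergenic non-coding RNA at chr9:91404474-91562818 on the plus strand, 15126 bases from Zic4. Its rank was 1 for Zic1, Zic2 and Zic4, and 3 for Zic5. Over the neuron profiles its rank was 1 for all 4, with an r of 0.66, 0.64, 0.73 and 0.57 for Zic1, Zic2, Zic4 and Zic5. The neighbourhood was looked at because of this ranking.

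Within 200 kb of the chromosome 9 pair the annotation has 9 other genes, 2 of them in the matrix, and 1 reached 20 CPM in a profile, which was Gm29478. Around the chromosome 14 pair 5 of 10 genes were in the matrix and all 5 reached 20 CPM. AC154683.1 (ENSMUSG00000115263, chr14:122365239-122406743, minus strand, annotated as antisense) lies 50052 bases from Zic5. Its rank was 4 for Zic1, 71 for Zic2, 2 for Zic4 and 5 for Zic5. Gm5089 (ENSMUSG00000064052, chr14:122434854-122451115, minus strand) lies 5680 bases from Zic5, and its rank was 7 for Zic1, 69 for Zic2, 3 for Zic4 and 4 for Zic5. So genes beside Zic5 and Zic2 on chromosome 14 were among the closest to Zic4 on chromosome 9. GENCODE M21 gives the gene IDs of both AC154683.1 and Gm5089 the name Gm5089. They were counted apart by gene ID, and the names used here are those of the matrix.

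Not every neighbour was alike. Clybl, which overlaps AC154683.1 on the other strand, had an r of 0.48 to 0.65 with the 4 genes, Gm10837 one of 0.60 to 0.71, and Pcca, a mitochondrial enzyme gene, 0.35 to 0.58. The 3′ chemistry keeps the strand of an RNA, but the sources used here do not say whether the counting used it, so the split of reads between Clybl and AC154683.1 where they overlap is uncertain.

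Gm29478 was at 776, 968, 821 and 691 CPM in the epithelial class from E19 to P21 and at 264, 203, 218 and 249 CPM in the VLMC. In fibrous astrocytes it was at 504, 904, 295 and 79.4 CPM, the same order as Zic4 but for E19 and P4. In excitatory neurons it was at 3.47 CPM at E19, 19.9 at P4, then 2.96 at P8 and 1.85 at P21. In the oligodendrocyte lineage it had 0 to 4 UMIs in a library, and in microglia it had 0 in all 4.

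AC154683.1 differed from Zic4 with stage. In fibrous astrocytes it was at 478, 709, 513 and 472 CPM from E19 to P21, and in protoplasmic astrocytes at 51.7, 91.8, 137 and 55.03 CPM. It did not share the low P21 level of Zic4, 57.3 CPM. In the VLMC it was at 114, 197, 266 and 252 CPM.

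**Figure D5:**
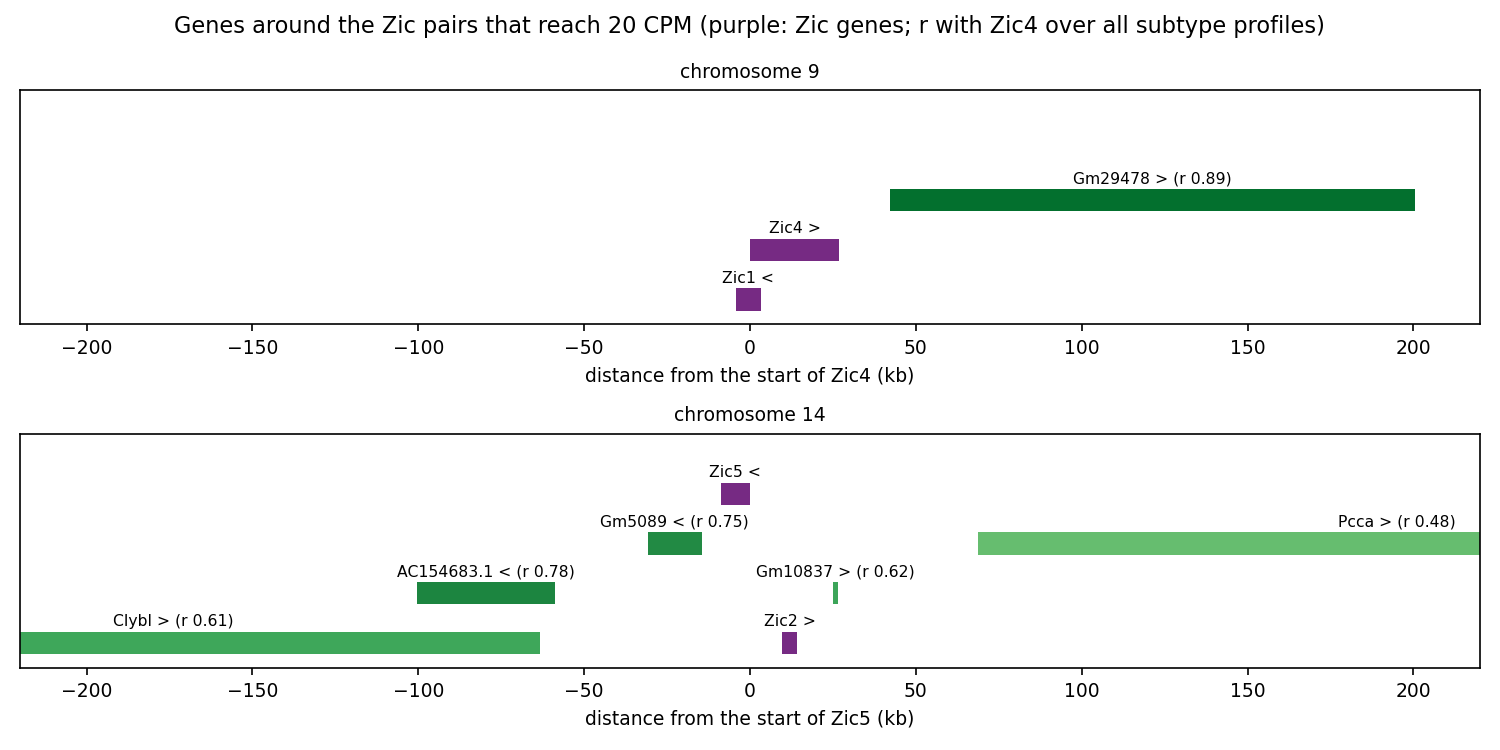
Genes within 200 kb of the Zic pairs that reached 20 CPM in a profile, drawn by distance (kb) from the start of Zic4 (top) and of Zic5 (bottom), with arrows for strand, the 4 Zic genes in purple and the others in green with their Pearson r with Zic4. Gm29478 (0.89), AC154683.1 (0.78) and Gm5089 (0.75) are darkest, and Clybl and Pcca run past the edges.

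Genes of related proteins and partners were taken from fixed lists. Of 20 genes of the GLI superfamily and the hedgehog pathway, from E19 to P21, 15 passed the filter in excitatory neurons and 2 were past 2-fold lower, the transcription factor gene Glis3 (49.9 to 8.22 CPM) and the hedgehog-binding gene Hhip (23.8 to 7.53 CPM). In inhibitory neurons 12 passed and 3 were lower, among them the transcription factor gene Gli3 (89.4 to 24.0 CPM) and the signal transducer gene Smo (12.6 to 2.03). Of all genes 9.35% in excitatory and 10% in inhibitory neurons were lower. None of the list was higher in either class, where 4.64% and 5.1% of genes were. Over all 20 listed genes, those under the filter included, the median was -0.24 and -0.05 on the log2 scale. The medians over all genes, -0.09 and -0.07, used only genes that passed the filter, so they are no like-for-like background for the list.

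In astrocytes 17 passed, 3 were lower and 3 were higher, where 16.7% of all genes were lower and 7.76% higher. The number lower is near that background. The lower ones were Glis3 (862 to 367 CPM) and the hedgehog co-receptor genes Cdon (46.4 to 3.69) and Gas1 (33.5 to 14.1). The higher ones included Gli1, a transcription factor gene that hedgehog signalling turns on (11.9 to 43.7 CPM), and Glis1 (14.04 to 51.0). Over the whole list, genes under the filter included, the median was 0.04, and over all genes that passed the filter it was -0.25. Between P4 and P21 in the VLMC 17 passed and none was past 2-fold, where 12.6% of all genes were lower and 4.86% higher.

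Of 9 genes linked to Zic proteins in the literature as partners or targets, 5 passed the filter in excitatory neurons and 3 were lower from E19 to P21: Slc6a4, the serotonin transporter gene (5.64 to 0.0685 CPM), Tcf7l2 (879.8 to 197) and Apoe (95.7 to 25.7), which carries lipids. Of all genes 9.35% were lower there. In inhibitory neurons, where 10% of genes were lower, 5 passed and Ephb1, an ephrin receptor gene (869 to 371 CPM), Tcf7l2 and Apoe were lower. Apoe was at 2642 CPM at E19 and 1715 at P21 in astrocytes, and the part of free RNA in its neuronal levels was not tested. In astrocytes, where 16.7% of genes were lower, 6 passed, and Rnf180 (389 to 157 CPM) and Ephb1 (1400 to 51.7 CPM) were lower. In the VLMC 6 passed from P4 to P21, and Ephb1 was lower (91.4 to 31.6 CPM), where 12.6% of genes were. None was higher in the 4 comparisons, where 4.64, 5.1, 7.76 and 4.86% of all genes were. With 5 or 6 genes passing, that count is near those shares.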

How the data were processed

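RNA was measured in single nuclei of 4 libraries, 1 per stage and each from pooled animals. The authors deposited a matrix of UMI counts per gene and nucleus, with the class, subtype and percent of mitochondrial UMIs of each nucleus (the deposited percent is at most 5). Reads were processed with Cell Ranger 3.0.2, per the submitters' processing notes, against a pre-mRNA reference made from mm10, per the series' design text, so reads from introns count. The sources used here do not give other nucleus filters or the use of strand. The 8 other columns of the nucleus table were not used.

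Recomputed UMI totals equalled the deposited ones in all 9724 nuclei. Counts were summed per library and class or subtype and scaled to CPM. A difference was called past 2-fold on log2 values with 5 CPM added, for genes that reached 5 CPM in the higher profile. Shares were also computed with every nucleus thinned to 2300 UMIs, which left none out. Subtypes needed 20 nuclei in a library, and classes 50 for a difference between stages. Nuclei were split at 2 UMIs of a Zic gene, and the genes most different were ranked with 20 CPM added. No doublet caller was run, and results were recomputed without the 5% of nuclei with the most UMIs.

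The members and lists were chosen with earlier results of these data known. Named genes are the 4 members, the 3 most alike genes per member among those reaching 20 CPM, and list genes past 2-fold. Some items that the rule names are not reported here. The splits of EN10, EN7, IN1 and fibrous astrocytes, the make-up of IN3 and the neighbours within 200 kb were chosen after values were seen, as was the oligodendrocyte lineage as the level that free RNA can give. Gene positions come from GENCODE M21 (GRCm38) and promoter windows from RefSeq (GRCm38.p6). Alternatives were another scaling, other added values, other weights, thinning, other minimums and leaving out each library. The scripts were tested on simulated data, and ran under Python 3.11.15 with NumPy 2.4.6, SciPy 1.17.1, pandas 2.3.3 and matplotlib 3.10.9.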

Additional observations from a re-analysis of the deposited data

How the results depend on the processing

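With 1 library per stage there is no replicate spread, and depth limits the smaller classes and Zic2 and Zic5 most. Of the values recomputed for the main comparisons, 96 stayed within the counting interval of the main value or within 1.5 times the main count and 17 moved, and of the values for single genes 67 stayed within the counting interval and 37 moved. None reversed. The number of the 4 genes past 2-fold lower from E19 to P21 in excitatory neurons was 2, and it was 1 with median-of-ratios scaling, 1 with subtypes weighted alike, 1 without EN7 and 0 with 20 CPM added. In inhibitory neurons it was 2, and 0 with 20 CPM added. The number of genes with a higher value in inhibitory neurons in every library was 0, and it was 1 with nuclei weighted alike, 1 with thinning, 1 without the 5% of nuclei with the most UMIs, 1 with subtypes weighted alike and 3 without EN7, and leaving out 1 library at a time gave 0 to 4, the highest without P4. These counts of higher values go by direction alone, with no share of all genes beside them. With a minimum of 50 nuclei per subtype in place of 20, 6 of the 12 leading subtypes over all nuclei (3 per gene) and 7 of the 12 over neurons were still among the leaders. The co-detection ratio of Zic2 with Zic4 over all nuclei was 1.30, and 1.07 after thinning, and that of Zic1 with Zic4 was 1.37, and 1.56 with strata of class and library. The cause was not tested. Without EN7, without EN10 and without both, chosen after seeing the data, Zic1 in excitatory neurons at P4 was 36.1, 39.0 and 30.0 CPM. The number of the 4 genes past 2-fold lower from P4 to P8 in excitatory neurons was 2, and it was 1 without EN7 and 0 without EN7 and EN10. Removing the filter on low values was not run for the subtype order, which uses none. No paired analysis was possible because each stage has 1 library and the stages share only the replicate number 1.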
